A study of Homo sapiens with 24 samples.

Results

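Homologous recombination rebuilds a broken chromosome from its sister, and the Fanconi anemia pathway unhooks crosslinks that tie both DNA strands together. The 35 genes described here are listed genes of these pathways, taken by name and matched to the deposited Ensembl identifiers through gene symbols. All 35 were listed in each of the 6 deposited tables and all 35 passed the filter on low values in each of them, out of 34496 genes listed in at least 1 table. They were grouped by role into 5 mediators (BRCA1, BRCA2, PALB2, BARD1, BRIP1), 9 strand exchange genes (RAD51B, RAD51C, RAD51D, XRCC2, XRCC3, RAD51AP1, RAD52, RAD54L, RAD54B), 5 end resection genes (MRE11, NBN, RAD50, RBBP8, BLM), 10 genes of the Fanconi core complex and its ubiquitin enzyme (FANCA, FANCB, FANCC, FANCE, FANCF, FANCG, FANCL, FANCM, UBE2T, FAAP24) and 6 genes of the clamp and the nucleases (FANCD2, FANCI, FAN1, SLX4, EME1, MUS81).

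Polyadenylated RNA was sequenced from 4 glioma cell lines. U87-R and LN229-R are temozolomide-resistant derivatives of the established lines U87 MG and LN229, and temozolomide is the alkylating drug used against glioblastoma. The 8 groups of 3 libraries were U87 MG with STM2457 and with DMSO, U87-R with STM2457 and with DMSO, LN229 with STM2457 and with DMSO, and LN229-R with STM2457 and with DMSO. STM2457, an inhibitor of the RNA methyltransferase METTL3, was given at 50 µM for 96 h, and the medium of both resistant lines held 50 µM temozolomide while that of the parental lines held none. The labels do not say how the resistant lines were made or whether each is a single clone. Kit and medium differed with the background, since U87 MG and U87-R grew in EMEM and were prepared with the TruSeq Stranded kit, while LN229 and LN229-R grew in DMEM and were prepared with the Watchmaker kit. The labels do not say that replicates were separate cultures, so the spread behind each p-value is that between these libraries and may be technical.

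In the textbook account, the MRE11, RAD50 and NBN complex and RBBP8 (CtIP) trim a broken end, BRCA1 with BARD1, PALB2 and BRCA2 prepare the single strand for strand exchange, and RAD51B, RAD51C, RAD51D, XRCC2, XRCC3 and the RAD54 proteins help it invade the sister. At a crosslink, the Fanconi core complex, with the ubiquitin ligase FANCL and the conjugating enzyme UBE2T, ubiquitinates the clamp of FANCD2 and FANCI, which brings in nucleases. METTL3 places N6-methyladenosine on messenger RNA, and exon junctions are known to keep this mark away from nearby sequence.

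The names of the DMSO libraries of LN229 and LN229-R did not match from table to table. Each DMSO library stood in a table of resistant against parental cells and in a table of STM2457 against DMSO. In the U87 family, 6 of 6 columns of the resistance table had their nearest match in the column of the same name in the drug tables, where the log2 ratio had an SD over genes of 0.0582 to 0.06. In the LN229 family, 0 of 6 did. All 6 matched a column of the other line, at an SD of 0.0579 to 0.0619, and their own name at 0.346 to 0.406. Directions between the libraries labelled LN229-R and LN229 therefore depend on which table is right, while STM2457 effects keep their direction if the names of whole tables are exchanged. The match covers DMSO columns alone, and an exchange of DMSO columns without their STM2457 columns was not tested. Deposited totals were 21232924 to 25349361 normalized counts per library for U87 MG and U87-R, and 24101385 to 28716587 for LN229 and LN229-R. Of the glioma line markers, VIM reached 145063 and CD44 42534 normalized counts, and GFAP stayed at or below 227 in every library. Of the markers of other cell types, CD3E and AIF1 were not among the genes listed and PTPRC reached at most 5.36, while CD68 reached 20217 in the U87 family.

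STM2457 against DMSO was tested in each line with limma on log2(value + 1), and a member was said to rise or fall at a Benjamini-Hochberg adjusted p under 0.05 over all genes tested. In U87 MG, 2 members rose and 3 fell, where 13.6% of all genes changed, 7.86% higher and 5.72% lower. In U87-R, 3 rose and 3 fell, where 14.7% of all genes changed, 8.46% higher and 6.2% lower. In LN229, 4 rose and 24 fell, and in LN229-R, 1 rose and 9 fell. The share of all genes that changed was 49.7% in LN229 (26.2% higher, 23.6% lower) and 38.6% in LN229-R (21.5% higher, 17.1% lower). The 68.6% of members that fell in LN229 stood against that 23.6%, the 25.7% in LN229-R against 17.1%, and the shares that fell in both U87 lines (8.57% each) were close to the background. These counts take no account of the replicate number. With that number as a block in the fit, 19 of 35 members fell in LN229-R, where 23.7% of all genes were lower. Pairing by number is in doubt there, as given below.

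Across these comparisons, 29 members passed at least once and none rose in one line and fell in another. Such shares over all genes were not computed, so whether these counts set the members apart was not tested. In LN229 alone 80.0% of the members passed, against 49.7% of all genes. FANCF rose in all 4 lines, and UBE2T and MUS81 fell in all 4. The share of all genes called in all 4 lines was not computed either. The members that passed in no comparison were BRIP1, RAD51B, RAD51D, RAD50, FANCB and SLX4. The median log2 change of the 35 members was -0.11 in U87 MG, -0.01 in U87-R, -0.54 in LN229 and -0.51 in LN229-R, against -0.01, -0.005, -0.003 and -0.02 for all genes tested. With each library left out in turn these medians were -0.17 to -0.07, -0.06 to 0.06, -0.63 to -0.40 and -0.67 to -0.24, the last of these without LN229-R STM2457 replicate 2. The -0.40 in LN229 was likewise without LN229 STM2457 replicate 2. With libraries scaled to equal totals the U87-R median was 0.04, so its sign depends on the scaling.

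**Figure D1:**
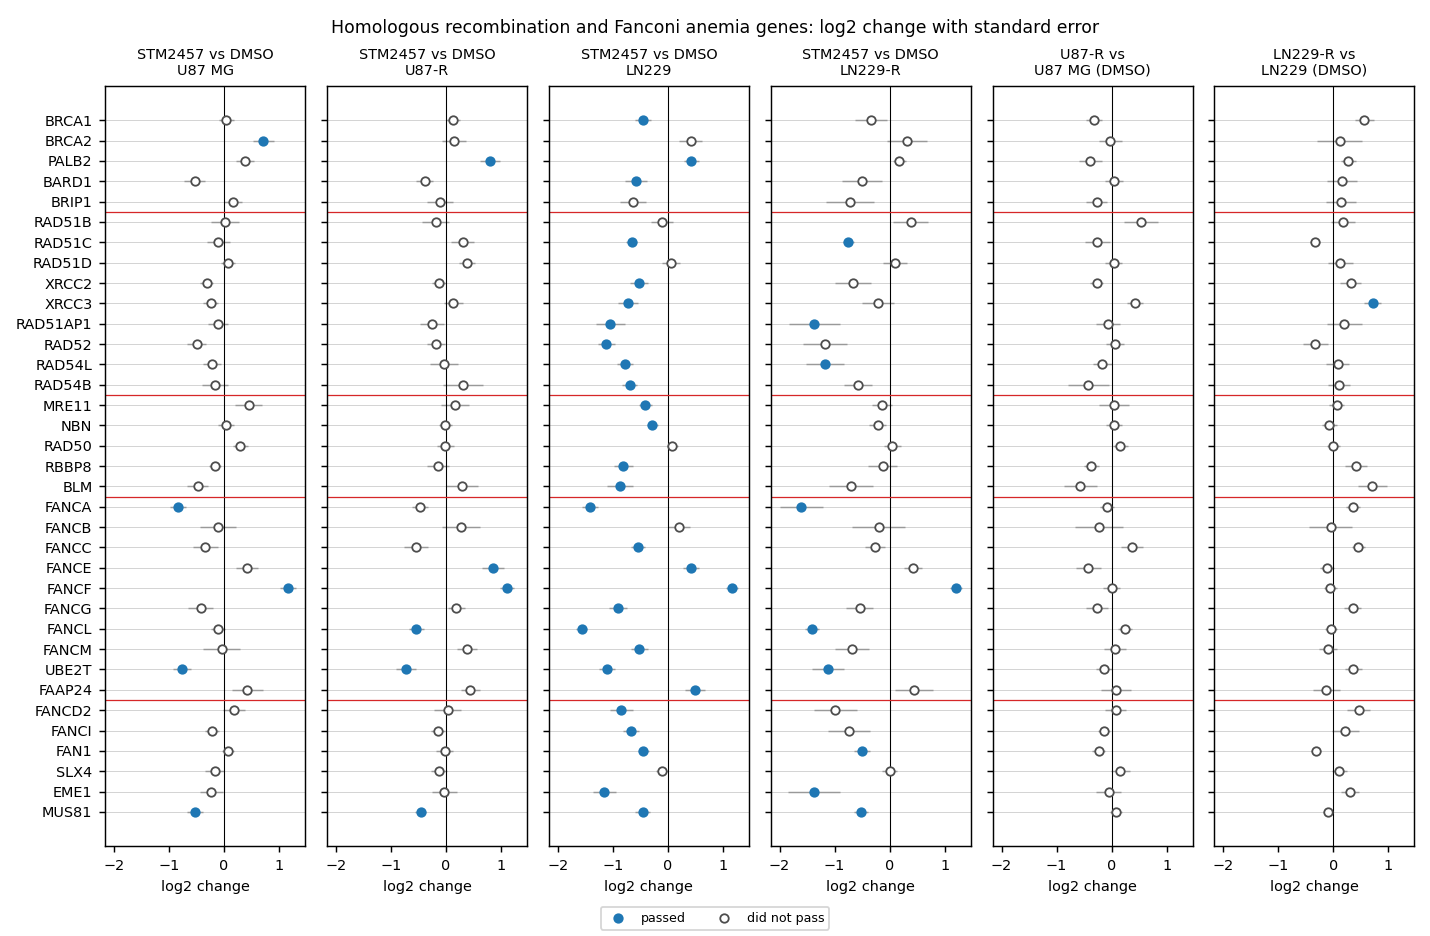
Log2 change (x axis, points, with the standard error as a bar) of each of the 35 members (y axis, red lines separate the 5 roles) in the 4 STM2457 comparisons and the 2 comparisons of resistant with parental cells. FANCF lies between 1.11 and 1.20 in every STM2457 panel, and most points of both LN229 panels lie left of 0.

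FANCF, the adaptor subunit that holds the core complex together, was the single member that rose in every line. In U87 MG it had 529.6, 578 and 576 normalized counts with STM2457, against 217, 267 and 269.6 with DMSO. In U87-R it had 514, 484 and 472 with STM2457, against 229, 216 and 236 with DMSO. Every STM2457 library was above every DMSO library in both lines. In LN229 it had 898, 963 and 926 with STM2457, against 385, 389 and 469.8 with DMSO. In LN229-R it had 1132, 1051 and 1107 with STM2457, against 474, 486 and 468 with DMSO. The groups did not overlap in any line. The log2 change was 1.16 (SE 0.14) in U87 MG, 1.11 (SE 0.13) in U87-R, 1.17 (SE 0.11) in LN229 and 1.20 (SE 0.11) in LN229-R. The limma adjusted p was 0.0022, 0.0016, 9e-05 and 0.00016 in that order, and it stayed at or below 0.018 when any single library was left out. FANCF (ENSG00000183161) lies on the minus strand at chr11:22622533-22625823 in GRCh38.p14.

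UBE2T (ENSG00000077152), the conjugating enzyme that works with FANCL, fell in every line. It had 229, 259 and 292 normalized counts with STM2457 in U87 MG, against 422, 391 and 517 with DMSO. In U87-R it had 179, 216 and 278 with STM2457, against 359, 353 and 385 with DMSO. Every STM2457 library was below every DMSO library in both lines. In LN229 it had 711, 481 and 665 with STM2457, against 1213, 1333 and 1389 with DMSO. In LN229-R it had 661, 333 and 679 with STM2457, against 1261, 894 and 1397 with DMSO, and replicate 2 was the lowest in both groups. The log2 change was -0.77 (SE 0.16), -0.72 (SE 0.18), -1.10 (SE 0.15) and -1.13 (SE 0.29) in U87 MG, in U87-R, in LN229 and in LN229-R, with limma adjusted p of 0.016, 0.03, 0.00058 and 0.018. The call in LN229 held without any single library. It was lost in U87 MG without STM2457 replicate 2 (adjusted p 0.066), in U87-R without any library but STM2457 replicate 3 (highest adjusted p 0.1) and in LN229-R without DMSO replicate 1 or 3 (highest adjusted p 0.066).

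FANCL (ENSG00000115392), the ligase itself, showed the largest fall of any member in LN229 and the next to largest in LN229-R. It had 1080.0, 961 and 1206 normalized counts with STM2457 in LN229, against 3383, 3167 and 3012 with DMSO (log2 change -1.56, SE 0.10; limma adjusted p = 1.7e-05). In LN229-R it had 1359.9, 1357 and 1524 with STM2457, against 3564, 4378 and 3367 with DMSO (-1.41, SE 0.13; adjusted p = 0.00018). The groups were far apart in both lines, and both calls held without any single library. In U87-R it had 365, 309 and 327 with STM2457, against 532, 468 and 451 with DMSO (-0.54, SE 0.14; adjusted p = 0.033), a call that was lost without any library but DMSO replicate 3 (highest adjusted p 0.13). In U87 MG the groups overlapped, at 450.5, 390.0 and 410.4 with STM2457 and 460.0, 475 and 412 with DMSO (-0.11, SE 0.13; adjusted p = 0.62).

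FANCA, the core subunit that binds FANCG, fell in 3 lines. It had 671, 757 and 899 normalized counts with STM2457 in U87 MG, against 1165, 1485 and 1500.4 with DMSO (-0.84, SE 0.15; limma adjusted p = 0.0081). In LN229 it had 789.8, 571 and 843 with STM2457, against 1937, 1886 and 1976 with DMSO (-1.41, SE 0.14; adjusted p = 0.00014). In LN229-R it had 842, 269 and 747 with STM2457, against 1746, 1410.2 and 1941 with DMSO (-1.61, SE 0.39; adjusted p = 0.014). No group overlapped in these lines, and STM2457 replicate 2 of LN229-R was far below the other two. The LN229-R call was lost without DMSO replicate 3 (adjusted p 0.051), and the others held without any single library. In U87-R the value was 729, 849 and 985 with STM2457 against 1308, 1081 and 1157 with DMSO, without overlap (-0.47, SE 0.14; adjusted p = 0.053), and it passed with the replicate as a block, as given below.

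**Figure D2:**
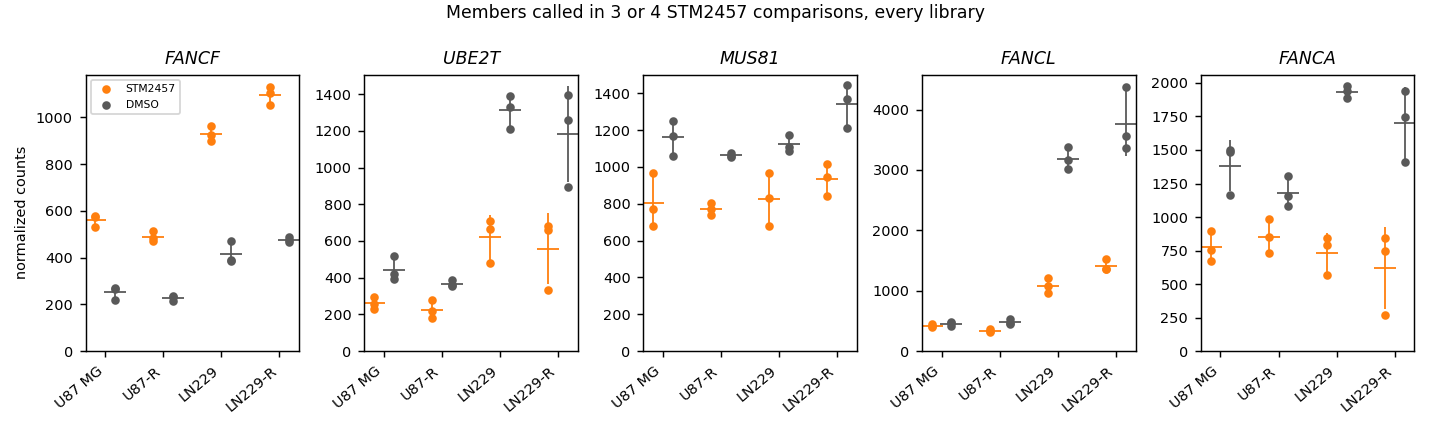
Normalized counts (y axis, starting at 0) of FANCF, UBE2T, MUS81, FANCL and FANCA in each library of the 4 lines (x axis), STM2457 in orange left of DMSO in grey, with the mean as a dash and the SD as a bar (n = 3). The orange points of FANCF lie above the grey ones in each line, and those of UBE2T and MUS81 lie below.

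Among the other genes of the core complex, FANCE, which contacts FANCD2, rose in U87-R and LN229. It had 154, 183 and 191 normalized counts with STM2457 in U87-R, against 101, 81.2 and 112 with DMSO (0.85, SE 0.20; limma adjusted p = 0.024). In LN229 it had 313, 248 and 341 with STM2457, against 213, 224 and 233 with DMSO (0.42, SE 0.15; adjusted p = 0.045). The groups were apart in both lines, but the U87-R call was lost without STM2457 replicate 2 or 3 or DMSO replicate 1 or 2 (highest adjusted p 0.097), and the LN229 call without any library but STM2457 replicate 2 (highest adjusted p 0.14). FAAP24, which binds DNA beside FANCM, rose in LN229, at 143, 127 and 137 with STM2457 against 92.7, 82.4 and 114 with DMSO (0.50, SE 0.18; adjusted p = 0.047). Its groups did not overlap, and the call was lost without STM2457 replicate 1 or 3 or DMSO replicate 1 or 2 (highest adjusted p 0.14). FANCG, FANCC and FANCM, the last of these the translocase that anchors the complex to DNA, fell in LN229, by 0.91, 0.54 and 0.52 on the log2 scale, and passed in no other line. The FANCM call was lost without STM2457 replicate 1 or DMSO replicate 1 or 3 (highest adjusted p 0.087). FANCB passed in no line.

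In the clamp and the nucleases, MUS81, the catalytic subunit of a structure-selective nuclease, fell in every line. It had 969, 773 and 679 normalized counts with STM2457 in U87 MG, against 1170.5, 1251 and 1059.8 with DMSO. In U87-R it had 806, 771 and 740.1 with STM2457, against 1074, 1061 and 1052 with DMSO. The DMSO libraries of U87-R were nearly level, and no STM2457 library reached them. In LN229 it had 969, 677 and 831 with STM2457, against 1109, 1088 and 1172 with DMSO. In LN229-R it had 947, 842 and 1016 with STM2457, against 1213, 1448 and 1368 with DMSO. The groups did not overlap in any line. The log2 change was -0.54 (SE 0.15), -0.46 (SE 0.10), -0.46 (SE 0.13) and -0.52 (SE 0.12) in U87 MG, in U87-R, in LN229 and in LN229-R, with limma adjusted p of 0.043, 0.02, 0.019 and 0.012. With libraries scaled to equal totals the MUS81 call in U87 MG was lost (adjusted p = 0.079). Each call was lost without at least 1 library: without any but STM2457 replicate 1 in U87 MG (highest adjusted p 0.14), without STM2457 replicate 2 or DMSO replicate 1 or 2 in U87-R (0.084), without DMSO replicate 1 or 3 in LN229 (0.068) and without DMSO replicate 3 in LN229-R (0.051). EME1, the partner of MUS81, fell in LN229 (-1.15, SE 0.21; adjusted p = 0.0023) and in LN229-R (-1.38, SE 0.47; adjusted p = 0.049), the last of these lost without STM2457 replicate 3 or any 1 DMSO library (highest adjusted p 0.14).

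FANCD2 and FANCI, the clamp itself, fell in LN229, by 0.85 and 0.66 on the log2 scale (limma adjusted p = 0.01 and 0.0058). In LN229-R the changes were -0.99 and -0.74, with adjusted p of 0.078 and 0.16. FAN1, a nuclease that the ubiquitinated clamp recruits, fell in LN229 (-0.44, SE 0.10; adjusted p = 0.006) and in LN229-R (-0.50, SE 0.15; adjusted p = 0.027), the last of these lost without STM2457 replicate 1 or 3 or DMSO replicate 2 or 3 (highest adjusted p 0.081). SLX4, the scaffold that gathers the nucleases, passed in no line, with log2 changes of -0.17, -0.13, -0.10 and 0.00 in U87 MG, in U87-R, in LN229 and in LN229-R.

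Of the end resection genes, none passed in U87 MG, U87-R or LN229-R and 4 of 5 fell in LN229. RBBP8, which starts resection, had a log2 change of -0.81 (SE 0.17; limma adjusted p = 0.0049), and BLM, a helicase of long-range resection and of the dissolution of joined strands, one of -0.87 (SE 0.23; adjusted p = 0.014). MRE11, the nuclease, fell by 0.41 and NBN, the complex's signalling subunit, by 0.28. The MRE11 call was lost without DMSO replicate 2 or 3 (highest adjusted p 0.089), and the NBN call without STM2457 replicate 1 or 3 or DMSO replicate 1 or 3 (highest adjusted p 0.12). RAD50, the third subunit of that complex, had 0.08.

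The mediators did not move as one. BRCA2, the mediator that PALB2 recruits, rose in U87 MG, with 385, 545 and 563 normalized counts with STM2457 against 364, 281 and 259 with DMSO (0.72, SE 0.19; limma adjusted p = 0.042). The groups did not overlap, and the call was lost without STM2457 replicate 2 or 3 or DMSO replicate 2 or 3 (highest adjusted p 0.15). PALB2, which joins BRCA1 to BRCA2, rose in U87-R, with 638, 642 and 541 with STM2457 against 373, 424 and 267 with DMSO (0.79, SE 0.18; adjusted p = 0.022). It also rose in LN229, with 634, 649.7 and 660.2 with STM2457 against 477, 402 and 581 with DMSO (0.43, SE 0.14; adjusted p = 0.031). All STM2457 libraries were above the DMSO libraries in both lines. The call was lost without STM2457 replicate 1 or 2 or DMSO replicate 1 in U87-R (highest adjusted p 0.093), and without STM2457 replicate 1 or 3 or DMSO replicate 1 or 2 in LN229 (0.093). BRCA1 and its partner BARD1 fell in LN229, by 0.45 and 0.58, the first of these lost without DMSO replicate 1 or 3 (highest adjusted p 0.11) and the other without STM2457 replicate 1 or 2 or DMSO replicate 1 or 3 (0.14). BRIP1, a helicase bound to BRCA1, had -0.64 in LN229 (SE 0.24; adjusted p = 0.051).

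Of the 9 strand exchange genes, none passed in U87 MG or U87-R, 7 fell in LN229 and 3 in LN229-R. RAD52, which anneals single strands, had 148, 159.8 and 166 normalized counts with STM2457 in LN229, against 285, 399 and 357 with DMSO (-1.12, SE 0.16; limma adjusted p = 0.0007). In LN229-R its replicates lay far apart and the groups overlapped, at 122, 387 and 223 with STM2457 and 358, 659.8 and 515 with DMSO (-1.17, SE 0.40; adjusted p = 0.051), although each replicate number was lower with STM2457. RAD51C, which takes part in strand exchange, had 607, 632 and 618 with STM2457 in LN229-R, against 1024, 1093 and 1014 with DMSO (-0.75, SE 0.10; adjusted p = 0.0012), and fell in LN229 as well (-0.66, SE 0.10; adjusted p = 0.0013). Its groups were tight and apart in both lines, and both calls held without any single library.

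RAD51AP1, which helps strands pair, fell in LN229 (-1.04, SE 0.26; limma adjusted p = 0.011) and LN229-R (-1.37, SE 0.46; adjusted p = 0.046), and so did the motor protein gene RAD54L (-0.79, SE 0.14 and -1.18, SE 0.35; adjusted p = 0.0027 and 0.029). In LN229-R, the RAD51AP1 call was lost without STM2457 replicate 2 or 3 or DMSO replicate 1 or 3 (highest adjusted p 0.15) and the RAD54L call without DMSO replicate 1 or 3 (0.1). RAD54B, a relative of RAD54L, and XRCC2 and XRCC3 fell in LN229, by 0.70, 0.52 and 0.72, and passed in no other line with STM2457. The XRCC2 call was lost without any 1 DMSO library (highest adjusted p 0.083). RAD51B and RAD51D, the remaining genes of this role, had -0.11 and 0.05 in LN229.

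The count of members that passed depended on single libraries in all 4 lines, and moved by over 1.5 times in U87 MG, U87-R and LN229-R. In U87 MG it was 5, and 3 without STM2457 replicate 3, DMSO replicate 2 or DMSO replicate 3, and 2 without STM2457 replicate 2. In U87-R it was 6, and 3 without STM2457 replicate 1, 2 without DMSO replicate 2, and 1 without STM2457 replicate 2 or DMSO replicate 1. In LN229-R it was 10, and 6 without DMSO replicate 1 and 3 without DMSO replicate 3. In LN229 it was 28, and 19 to 28 with each library left out in turn, the lowest without DMSO replicate 1.

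Replicate 2 of LN229-R stood apart in both groups. FANCI had 2319, 916 and 2032 normalized counts with STM2457 there, against 3532, 1744 and 3281 with DMSO, and BRCA1 had 641, 326 and 639 with STM2457 against 706, 487 and 780.4 with DMSO. In each of these genes replicate 2 was the lowest library of its group, so the groups overlapped although each STM2457 library was below the DMSO library of the same number. Like-numbered libraries of LN229-R deviated together, with correlations across genes of 0.102 to 0.321. Unlike-numbered pairs gave -0.266 to 0.169, reaching above the lowest like-numbered value, so pairing by number is in doubt there. With the replicate number as a block, 21 members passed in LN229-R, 2 higher and 19 lower, where 49.5% of all genes passed, 25.8% higher and 23.7% lower. The 10 called without the block were among them, and the 11 added were BARD1, BRIP1, XRCC2, RAD52, RAD54B, BLM, FANCE, FANCG, FANCM, FANCD2 and FANCI. Without replicate 2 of both groups, an alternative chosen after the data were seen, 2 rose and 20 fell, with a median of -0.47. In U87-R, where like-numbered libraries correlated at 0.114 to 0.298, the block gave 8 members instead of 6, with RAD51D and FANCA added, where 29.6% of all genes passed, 15.7% higher and 13.9% lower.

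**Figure D3:**
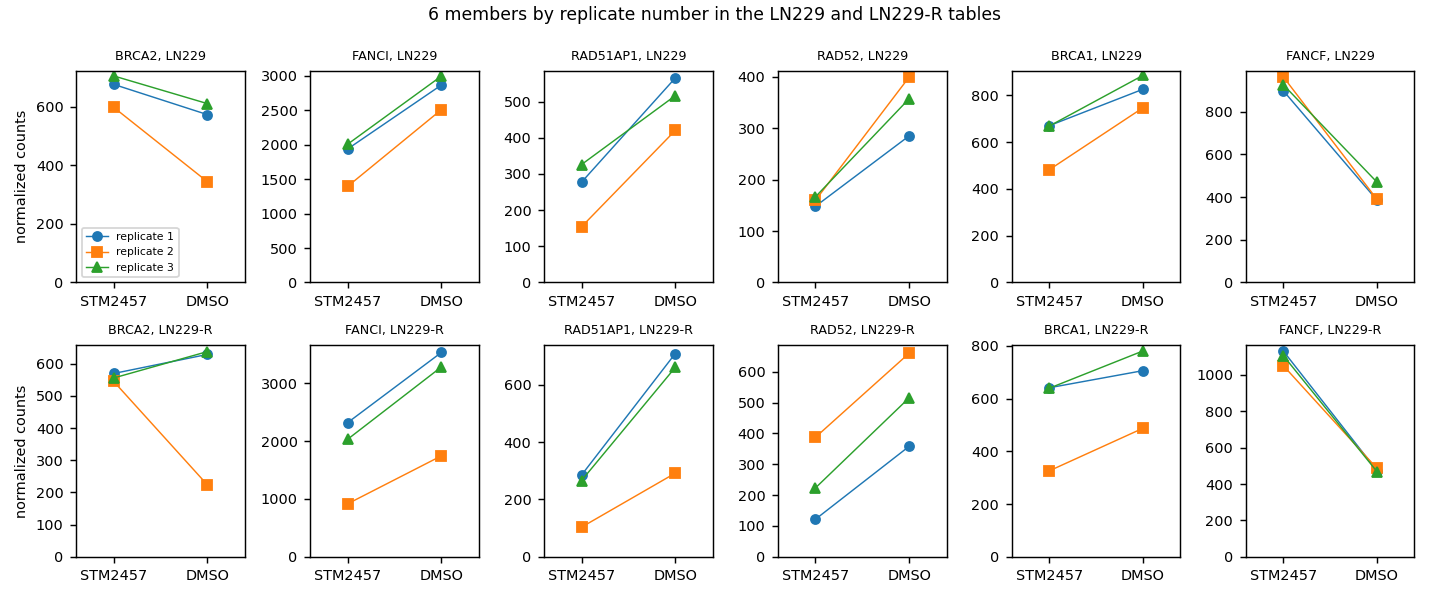
Normalized counts (y axis, starting at 0) of 6 members with STM2457 (left) and DMSO (right) in LN229 (top) and LN229-R (bottom), with lines joining libraries of the same replicate number. In LN229-R, replicate 2 (orange) is the lowest library of BRCA2, FANCI, RAD51AP1 and BRCA1 in both groups, and the highest of RAD52, while FANCF shows no such spread.

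Genes of the cell cycle fell beside the members in both LN229 lines, and G2 and M phase genes also fell in both U87 lines, where the members' shares were close to the background. Of 38 replication and S phase genes, 31 fell and 2 rose in LN229 (median -0.83), 9 fell in LN229-R (median -1.04), 6 fell and 2 rose in U87 MG (median -0.25) and 4 fell and 2 rose in U87-R (median -0.09). Of 28 G2 and M phase genes, 27 fell in LN229 (median -1.11), 6 in LN229-R (-1.24), 11 in U87 MG (-0.55) and 10 in U87-R (-0.43), and none rose. The shares of the S phase list that fell were 81.6% in LN229, 23.7% in LN229-R, 15.8% in U87 MG and 10.5% in U87-R, and those of the G2 and M phase list 96.4%, 21.4%, 39.3% and 35.7%, against 23.6%, 17.1%, 5.72% and 6.2% of all genes. The summed level of the S phase list in LN229 was 65906, 37545 and 64526 normalized counts with STM2457, against 81714 to 92339 with DMSO. Replicate 2 of LN229 was thus far below the other STM2457 libraries, while its DMSO libraries lay closer together. In LN229-R the sum was 63293, 21571 and 59077 with STM2457 against 92443, 54067 and 91388 with DMSO, with replicate 2 lowest in both groups. Of the glioma line markers, 7 of 11 tested fell and 2 rose in LN229 (median -0.64), with a summed level of 77618 to 91856 normalized counts with STM2457 against 115775 to 120576 with DMSO. In LN229-R 4 of 10 fell and 1 rose (median -0.78), at 77637 to 115462 with STM2457 against 135295 to 152351 with DMSO. Of the markers of other cell types, 4 of 8 tested rose in LN229 and 1 of 6 in LN229-R, and none fell (medians 0.59 and 0.46). The part of these lists in the changes of the members was not tested. In bulk RNA, fewer cells in a phase and less RNA per cell cannot be told apart.

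Resistant and parental cells were then compared in DMSO, with the same DMSO libraries that served the STM2457 comparisons. In U87-R against U87 MG, 0 of 35 members passed limma's test, with 2 at an unadjusted p under 0.05, where 4.27% of all genes changed, 3.13% higher and 1.15% lower. The 4 members with the lowest p were XRCC3, RBBP8, XRCC2 and BRCA1. XRCC3 had 749.7, 798 and 972 normalized counts in U87-R, against 573, 720.1 and 574 in U87 MG (log2 change 0.43, SE 0.15; adjusted p = 0.17). RBBP8 had 1098, 1047 and 786 in U87-R, against 1252, 1306 and 1189.5 in U87 MG (-0.37, SE 0.14; adjusted p = 0.22). Groups did not overlap in either gene, yet neither passed. XRCC2 had 523, 477 and 469.7 in U87-R, against 541, 603 and 632 in U87 MG (-0.27, SE 0.12; adjusted p = 0.3), again without overlap. BRCA1 had 930.2, 1099.7 and 834 in U87-R, against 1262, 1278 and 1019.9 in U87 MG, with overlap (-0.32, SE 0.14; adjusted p = 0.3). FANCF, with 230.0, 218 and 236 in U87-R and 198, 244 and 245 in U87 MG, had a log2 change of 0.00 (SE 0.16).

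Between the libraries labelled LN229-R and LN229, 1 member passed, where 9.25% of all genes changed, 5.6% higher and 3.65% lower. XRCC3, a strand exchange gene, had 605, 573 and 568 normalized counts in the libraries labelled LN229-R, against 341, 292 and 449 in those labelled LN229 (0.71, SE 0.16; limma adjusted p = 0.031). The groups were apart, but the call was lost without any 1 library labelled LN229-R or without replicate 1 labelled LN229 (highest adjusted p 0.12). Exchanging the names turns the sign of this and every other change between these libraries. The median of the members was 0.13, and -0.04 without replicate 2 labelled LN229, so its sign rests on that library, with 4 members called instead of 1 (3 higher, 1 lower). It was 0.33 and 0.24 without replicate 1 or 3 labelled LN229, and 0.25 and 0.08 without replicate 2 or 3 labelled LN229-R. The same library had the lowest S phase sum, at 54259 normalized counts beside 93322 and 91885 in replicates 1 and 3, and 90764 to 102663 in the libraries labelled LN229-R.

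Like-numbered libraries of this comparison correlated at 0.114 to 0.204, and with the replicate as a block 6 members passed, 4 higher and 2 lower, where 15.2% of all genes did, 8.32% higher and 6.85% lower. Beside XRCC3 these were BRCA1, FANCA and FANCC, higher in the libraries labelled LN229-R (log2 changes 0.56, 0.36 and 0.46), and RAD51C and FAN1, lower in them (-0.33 and -0.32). RAD51C had 856, 916 and 981 in the libraries labelled LN229-R against 1133, 1203 and 1118 in those labelled LN229, and FANCC, a core complex subunit, had 685, 605 and 764 against 494, 451 and 551. Neither overlapped between the groups.

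The effect of STM2457 was then compared between lines in joint fits of both tables. Between U87-R and U87 MG, 0 of 35 members differed by limma, with 1 at an unadjusted p under 0.05, and 0 of 15680 genes (0.0%) did, with 586 at an unadjusted p under 0.05. Between LN229-R and LN229, 0 members differed, with 0 at an unadjusted p under 0.05, and 1 of 16511 genes (0.00606%) did. In both tests temozolomide was in the medium of the resistant line alone and cannot be told apart from resistance. A p above the threshold does not show that the effects were equal: for FANCF, the differences of -0.06 and 0.03 had standard errors of 0.18 and 0.14. Between LN229 and U87 MG, 4 members differed, all more negative in LN229, where 18.8% of all genes differed, 11.6% more positive and 7.26% more negative. Between LN229-R and U87-R, 2 differed, both more negative in LN229-R, where 14.4% of all genes differed, 9.5% more positive and 4.91% more negative. Kit, medium and background cannot be told apart in these tests.

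FANCL fell by 1.56 on the log2 scale in LN229 and had -0.11 in U87 MG, a difference of -1.46 (SE 0.15; limma adjusted p = 5.8e-05), and between LN229-R and U87-R the difference was -0.87 (SE 0.18; adjusted p = 0.0061). Both held without any single library. FANCD2 had -0.85 in LN229 and 0.18 in U87 MG, with 661, 506 and 881 normalized counts with STM2457 and 959, 1300.3 and 1374 with DMSO in LN229, and 741, 915 and 999.8 with STM2457 and 594, 989.9 and 795 with DMSO in U87 MG (difference -1.02, SE 0.32; adjusted p = 0.04). It was below DMSO in LN229 without overlap, and its groups overlapped in U87 MG. RBBP8 had 584, 353 and 478 with STM2457 and 828, 777 and 827 with DMSO in LN229, and 1095, 1282 and 1229.8 with STM2457 and 1347, 1407 and 1288 with DMSO in U87 MG (difference -0.64, SE 0.21; adjusted p = 0.048). Both lines had lower values with STM2457, without overlap. With the names of the LN229 tables exchanged, which is the doubt described above, the RBBP8 difference was 0.043 (adjusted p = 0.94), so its direction rests on those names.

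FAN1 had 1286, 1494 and 1216 normalized counts with STM2457 and 1773, 1904 and 1740.0 with DMSO in LN229, and 1242, 1046 and 1246 with STM2457 and 1156, 1072 and 1115 with DMSO in U87 MG (difference -0.52, SE 0.14; limma adjusted p = 0.024). RAD51C had 295, 314 and 246 with STM2457 and 277, 253 and 173 with DMSO in U87-R, where the groups overlapped, beside the LN229-R values given above (difference -1.06, SE 0.24; adjusted p = 0.011). The RAD51C difference held without any single library. With the LN229 names exchanged, the FANCD2 and FAN1 differences were -1.17 (adjusted p = 0.13) and -0.58 (adjusted p = 0.052), and those of RAD51C and FANCL kept their call. The FAN1 call was lost without LN229 STM2457 replicate 3, LN229 DMSO replicate 2, U87 MG STM2457 replicate 3 or U87 MG DMSO replicate 2 (highest adjusted p 0.061), the FANCD2 call without 8 of the 12 libraries in turn (0.096) and the RBBP8 call without 10 of 12 (0.11). The count of 4 was 2 without LN229 STM2457 replicate 2, LN229 DMSO replicate 3, U87 MG DMSO replicate 1 or U87 MG DMSO replicate 2, 1 without LN229 DMSO replicate 2 or U87 MG STM2457 replicate 3, and 8 without U87 MG STM2457 replicate 1. With the replicate as a block, 15 members differed between LN229-R and U87-R, where 27.3% of all genes did, 15.5% more positive and 11.8% more negative. The pairing by number in LN229-R is in doubt, as given above. All 15 were more negative in LN229-R: beside RAD51C and FANCL these were PALB2, XRCC2, RAD51AP1, RAD52, RAD54L, RAD54B, FANCA, FANCG, FANCM, FANCD2, FANCI, FAN1 and EME1.

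The other genes of these pathways were 52 listed genes, of which 51 were tested. With STM2457, 3 fell and 1 rose in U87 MG, 3 fell and 2 rose in U87-R, 13 fell and 4 rose in LN229, and 7 fell and 2 rose in LN229-R. The shares that fell (5.88%, 5.88%, 25.5% and 13.7%) were near those of all genes (5.72%, 6.2%, 23.6% and 17.1%), and the shares that rose (1.96%, 3.92%, 7.84% and 3.92%) were below those of all genes (7.86%, 8.46%, 26.2% and 21.5%). FAAP100, a core complex subunit that forms a unit with FANCL and FANCB, fell in all 4 lines. It had 745, 486 and 670.4 normalized counts with STM2457 in LN229, against 2199, 2160.2 and 1975 with DMSO (-1.76, SE 0.15; limma adjusted p = 6.6e-05), and 706, 517 and 620.4 with STM2457 in LN229-R, against 2004, 2554 and 2115 with DMSO (-1.86, SE 0.15; adjusted p = 0.00012). The groups were far apart, as they were in FANCL. In U87 MG and U87-R the change of FAAP100 was -1.09 (SE 0.13; adjusted p = 0.0022) and -0.67 (SE 0.15; adjusted p = 0.02).

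BABAM2, a subunit of the BRCA1-A complex, also fell in all 4, by 0.52, 0.72, 0.83 and 1.00 in U87 MG, in U87-R, in LN229 and in LN229-R. ERCC1, which forms the crosslink-unhooking nuclease with ERCC4, fell by 0.81 in LN229 and 1.01 in LN229-R, and RPA3, of the single-strand binding complex, by 0.91 and 0.98. SAMHD1, a dNTP hydrolase with a role in resection, fell in U87 MG (-0.63, SE 0.13; limma adjusted p = 0.016) and U87-R (-0.92, SE 0.11; adjusted p = 0.002). In LN229-R it rose (1.01, SE 0.20; adjusted p = 0.0063), with 3175, 5138 and 2909 normalized counts with STM2457 against 1899.8, 1783 and 1720.5 with DMSO. FBH1, an antirecombinase helicase, rose in U87 MG (0.33, SE 0.09; adjusted p = 0.047), and HROB, which loads the MCM8 and MCM9 helicase, rose in U87-R (0.70, SE 0.17; adjusted p = 0.028). Between resistant and parental cells, 0 of 51 passed in U87-R against U87 MG (limma; 7 at an unadjusted p under 0.05), and 3 rose in the libraries labelled LN229-R: POLQ (1.38, SE 0.29; adjusted p = 0.024), RMI2 (0.83, SE 0.18; adjusted p = 0.028) and SLX1A (0.37, SE 0.09), which shares reads with its near-identical copy SLX1B and is uncertain. POLQ, the polymerase of theta-mediated end joining, had 688, 773 and 699 normalized counts in the libraries labelled LN229-R, against 375, 161 and 347 in those labelled LN229, with replicate 2 the lowest of the LN229 group.

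The changes were set beside gene structure. In GENCODE v29, FANCF is the one member with a single exon, and the other members have 3 to 43 exons, with a median of 15 over all 35. Across the 35 members, Spearman's rho between the log2 change and the number of exons per kb of mRNA was -0.41 in U87 MG, -0.43 in U87-R, -0.68 in LN229 and -0.63 in LN229-R. Without FANCF it was -0.36, -0.38, -0.65 and -0.60. Exons per kb gave the strongest of 5 features in both LN229 lines and in U87-R. The number of exons gave 0.06, -0.13, -0.12 and -0.17, mRNA length 0.25, 0.16, 0.29 and 0.23, the length of the longest exon 0.49, 0.22, 0.58 and 0.50, and its share of the mRNA 0.33, 0.10, 0.42 and 0.41. Over 12845 to 13110 protein-coding genes rho with exons per kb was -0.22, -0.17, -0.22 and -0.23 in the same order. These are descriptions across genes, which share the libraries and are not independent replicates, and the 4 lines' values share the same gene structures. No adjustment for the S phase genes was made.

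Of the 17 members above the median of 3.43 exons per kb, 15 fell and 1 rose in LN229 (median -0.85) and 8 fell in LN229-R (-0.75). Of the 18 at or below it, 9 fell and 3 rose in LN229 (-0.34), and 1 fell and 1 rose in LN229-R (-0.21). In U87 MG, 3 above it fell and 2 at or below it rose. In U87-R, 3 above it fell and 1 rose, and 2 at or below it rose. Of all genes, 23.6% fell and 26.2% rose in LN229, and 17.1% and 21.5% in LN229-R. All genes were not split by exons per kb, so how far this split is particular to the members was not tested. FANCL, with 8.32 exons per kb, FANCD2, with 8.24, FANCA, with 7.89, FANCI, with 7.85, and UBE2T, with 7.71, were the densest, beside 0.34 in FANCF. MUS81 had 6.69. FANCD2 and FANCI, although among the densest, did not pass in U87 MG or U87-R. Single-exon protein-coding genes as a whole had a median log2 change of 0.19 in U87 MG, 0.26 in U87-R, 0.38 in LN229 and 0.43 in LN229-R, and 20.3%, 20.7%, 47.7% and 42.1% of them were higher, against 8.72%, 9.46%, 28.2% and 23.5% of genes with more exons.

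**Figure D4:**
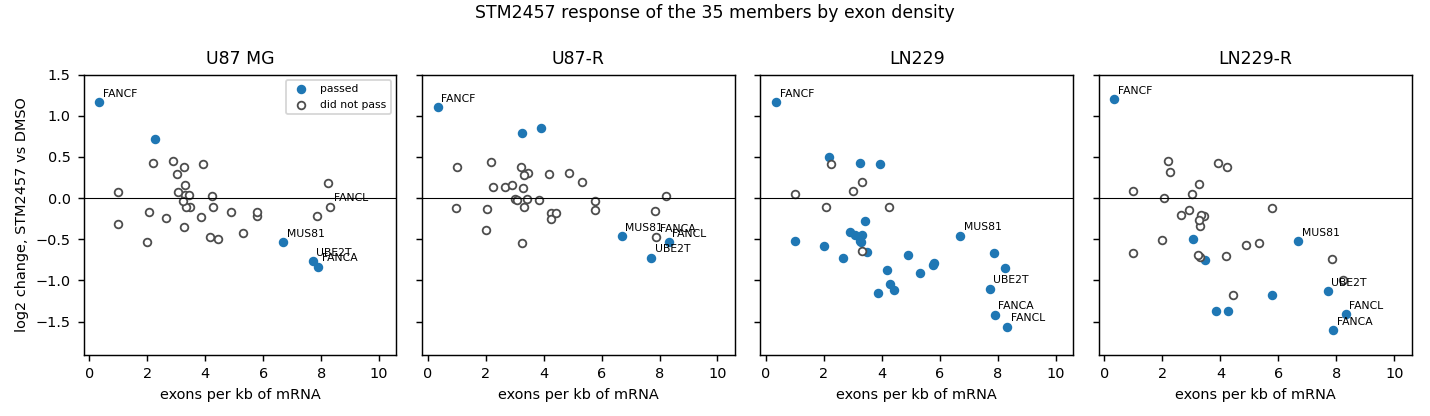
Log2 change with STM2457 (y axis) against exons per kb of mRNA (x axis) for the 35 members in each line, with filled points for members that passed. FANCF lies at the upper left in each panel at 0.34 exons per kb, and UBE2T, FANCL and FANCA lie at the lower right of both LN229 panels.

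The 5-base sequence GGACT is a form of the motif that METTL3 methylates. Its total number per mRNA did not order the members, with Spearman's rho of 0.14, 0.12, -0.01 and -0.02 in U87 MG, in U87-R, in LN229 and in LN229-R (n = 35). The number of GGACT over 200 bases from an exon junction gave 0.35, 0.35, 0.35 and 0.37 in that order. The share of mRNA bases over 200 bases from an exon junction gave 0.42, 0.26, 0.62 and 0.59. In the FANCF mRNA, GGACT occurs once, in the coding sequence, at transcript position 510 for its A, in the 30 bases at chr11:22625317-22625346 on the minus strand of GRCh38 (GENCODE v29), shown with the motif in capitals because FANCF was the member that rose in every line. A match is a description of the letters and not a methylated site.
FANCF mRNA around GGACT: aaatctccaggaGGACTctctgatgaagac

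The promoters of FANCF, UBE2T and MUS81, which passed in all 4 lines, and of FANCL, which had the lowest adjusted p of the members that passed in 3, are shown so that members that rose and fell can be set side by side, each with 250 bases before and 50 after the start, from RefSeq (GRCh38.p14). Capitals mark the CCAAT box (CCAAT) and the cell cycle homology region (TTTGAA), searched on both strands. FANCF is on chromosome 11 (chr11:22625774-22626073, minus strand), UBE2T on chromosome 1 (chr1:202341887-202342186, minus strand), MUS81 on chromosome 11 (chr11:65860183-65860482, plus strand) and FANCL on chromosome 2 (chr2:58241276-58241575, minus strand).
FANCF promoter: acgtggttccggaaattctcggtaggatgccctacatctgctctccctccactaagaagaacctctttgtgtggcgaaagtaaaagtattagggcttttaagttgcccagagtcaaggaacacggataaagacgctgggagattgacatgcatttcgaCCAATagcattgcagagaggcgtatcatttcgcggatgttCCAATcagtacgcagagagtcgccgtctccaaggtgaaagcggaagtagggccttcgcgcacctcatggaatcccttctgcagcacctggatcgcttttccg
UBE2T promoter: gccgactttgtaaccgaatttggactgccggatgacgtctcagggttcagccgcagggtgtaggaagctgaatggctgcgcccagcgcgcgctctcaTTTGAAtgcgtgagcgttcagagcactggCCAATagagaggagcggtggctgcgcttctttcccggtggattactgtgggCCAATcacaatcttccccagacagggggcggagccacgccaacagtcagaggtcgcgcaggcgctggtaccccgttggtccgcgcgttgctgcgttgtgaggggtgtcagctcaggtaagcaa
MUS81 promoter: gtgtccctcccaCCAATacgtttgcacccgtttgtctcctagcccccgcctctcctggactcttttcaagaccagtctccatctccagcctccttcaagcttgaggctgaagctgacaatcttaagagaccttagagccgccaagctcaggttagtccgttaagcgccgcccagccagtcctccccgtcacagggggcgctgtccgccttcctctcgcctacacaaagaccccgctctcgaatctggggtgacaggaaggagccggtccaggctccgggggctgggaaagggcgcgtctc
FANCL promoter: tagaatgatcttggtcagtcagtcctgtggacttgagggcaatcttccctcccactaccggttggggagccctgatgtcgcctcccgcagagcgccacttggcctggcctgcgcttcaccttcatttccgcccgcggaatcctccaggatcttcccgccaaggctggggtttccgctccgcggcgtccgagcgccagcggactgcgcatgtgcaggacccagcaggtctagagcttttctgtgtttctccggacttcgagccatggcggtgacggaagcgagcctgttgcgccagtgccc
FANCF, which rose, and UBE2T, which fell, both had 2 CCAAT boxes upstream of the start, at -92 and -52 in FANCF and at -124 and -73 in UBE2T, and UBE2T had TTTGAA at -153. MUS81 had 1 CCAAT box, at -238, and the FANCL window held neither. The RefSeq span of MUS81 begins at chr11:65859674, upstream of the window shown, so that window belongs to a start inside the span. Of the 35 members, 32 had a RefSeq promoter, of which 40.6% held CCAAT and 12.5% TTTGAA, against 35.7% and 15.4% of all 27305 promoters. An E2F motif (TTTCCCGC, TTTGGCGC, TTTCGCGC or TTTGCCGC) stood in 4 of 32 (12.5%), XRCC2, FANCA, FANCC and FANCD2, against 3.33% of all promoters. No match says only that these letters are not in the window.

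Exons of 20 members overlapped exons of another annotated gene in GENCODE v29, in 17 of them on the opposite strand. The longest opposite-strand overlaps were those of XRCC3 with KLC1 (5756 bases), FANCA with ZNF276 (2302 bases) and FAN1 with MTMR10 (1507 bases). Among the members that passed in all 4 lines, FANCF shares 333 bases with GAS2 and MUS81 759 bases with CFL1. FANCL, which passed in 3 lines, shares 452 bases with VRK2. On the same strand, RAD54B shares 3139 bases with FSBP and RAD50 shares 7784 bases with the annotated gene AC116366.3. The sources used here do not state whether counting used the strand, so reads from these stretches cannot be told apart, and the values of these genes are uncertain to that extent.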

How the data were processed

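Normalized counts (unit: signal) were deposited by the authors in 6 tables of 6 libraries each, normalized table by table. Per the submitters' processing notes, Trimmomatic 0.39, STAR 2.7.11a, Salmon 1.4.0 and DESeq2 were used on GRCh38 (hg38), without order or settings. Whole reads could not be recovered, so no count model was run and no interval for counting error is given; the totals only limit the precision. Ensembl identifiers were matched to symbols, and genes with a table mean of at least 10 were tested with limma 3.58.1 (R 4.3.3, variance trend) on log2(value + 1), fold changes being on that scale, which understates low genes. Benjamini-Hochberg adjustment ran over all genes of a table, with a threshold of 0.05. Effects were compared in joint fits of 2 tables (12 libraries). Exons, lengths and overlaps came from GENCODE v29, promoters and positions from RefSeq (GRCh38.p14). The fits were tested on simulated data.

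Like-numbered libraries were taken as paired where the correlation of their deviations across genes was over 0.1 in all 3 pairs. This held for LN229-R against LN229 and for STM2457 in U87-R and LN229-R, with pairing known from the data alone. The main counts and p-values come from fits without that pairing, which entered only through the block. For STM2457 in LN229-R an unlike-numbered pair reached 0.169, above the lowest like-numbered value of 0.102. The members and lists were chosen with earlier results of these data known. Per-library values are given for up to 4 rises and 4 falls per comparison with the lowest adjusted p, for members whose effects differed, and for the 4 lowest p where none passed; from the 52 other pathway genes, up to 4 per comparison were named. Alternatives tried were leaving out each library, a block for the replicate number, separate fits, a threshold of 0.01, a pseudocount of 0.5 or 5, a filter at a mean of 50 or none, libraries scaled to equal totals or upper quartiles, and limma without the trend. Leaving out replicate 2 of both LN229-R groups and exchanging the LN229 names were added after the data were seen.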

Additional observations from a re-analysis of the deposited data

Results flagged for a closer look

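The effect of STM2457 differed between backgrounds in 6 tests of members. Between LN229 and U87 MG, the difference in log2 change was -1.46 for FANCL, -1.02 for FANCD2, -0.64 for RBBP8 and -0.52 for FAN1. Between LN229-R and U87-R it was -1.06 for RAD51C and -0.87 for FANCL. Each value comes from limma's test of the difference itself in a joint fit of both tables, at a Benjamini-Hochberg adjusted p under 0.05 over all genes. All 6 were more negative in the LN229 background. The 4 are 11.4% of the members, against 18.8% of all genes that differed between LN229 and U87 MG (7.26% more negative). The 2 are 5.71%, against 14.4% of all genes between LN229-R and U87-R (4.91% more negative). With the names of the LN229 tables exchanged, 1 of the 4 calls held, that of FANCL, and both calls between LN229-R and U87-R held. Kit and medium changed with the background and cannot be told apart from it. FANCL differed in both pairs of lines and kept its call without any single library, as did RAD51C. RAD51C between LN229 and U87 MG had -0.55 (SE 0.24; limma adjusted p = 0.14), and FANCD2 between LN229-R and U87-R had -1.02 (SE 0.52; adjusted p = 0.22), which passed with the replicate number as a block.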

How the results depend on the processing

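The values below count members that passed. With each library left out in turn, the counts were 0 to 0 for U87-R against U87 MG, 0 to 4 for LN229-R against LN229, and for STM2457 2 to 5 in U87 MG, 1 to 5 in U87-R, 19 to 28 in LN229 and 3 to 11 in LN229-R. For differences in the STM2457 effect they were 0 to 0 for U87-R minus U87 MG and for LN229-R minus LN229, 1 to 8 for LN229 minus U87 MG and 2 to 3 for LN229-R minus U87-R. Of the called members, those that kept their call under every such omission were 0 of 1 in LN229-R against LN229, 2 of 5 in U87 MG, 1 of 6 in U87-R, 18 of 28 in LN229, 3 of 10 in LN229-R, 1 of 4 for LN229 minus U87 MG and 2 of 2 for LN229-R minus U87-R. At an adjusted p under 0.01 the counts were 0 for LN229-R against LN229, 2 in U87 MG, 1 in U87-R, 15 in LN229, 3 in LN229-R, 1 for LN229 minus U87 MG and 1 for LN229-R minus U87-R. Without the variance trend they were 0 for LN229-R against LN229, 3 in U87 MG, 3 in U87-R, 22 in LN229, 6 in LN229-R and 2 for LN229 minus U87 MG. Scaling to equal totals gave 2 for LN229-R against LN229 and 8 for LN229 minus U87 MG, for which separate fits gave 7.

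With the replicate block, 6 members passed for LN229-R against LN229, 8 for STM2457 in U87 MG, 21 in LN229-R, 11 for LN229 minus U87 MG and 15 for LN229-R minus U87-R. It moved no other count by over 1.5 times. Without replicate 2 of both groups, 22 members passed in LN229-R. For STM2457 in that line an unlike-numbered pair correlated at 0.169, above the lowest like-numbered value of 0.102, so the block is uncertain there. In U87 MG, LN229 and U87-R against U87 MG, not every like-numbered pair of libraries correlated above 0.1 (0.039 to 0.186, 0.068 to 0.099 and 0.019 to 0.14), so there the block rests on a shared number alone, although each like-numbered pair correlated more than any other pair in U87 MG and LN229. With the names of the LN229 tables exchanged, 1 member differed for LN229 minus U87 MG and 8 for LN229-R minus U87-R. Under that exchange RBBP8 turned to 0.043 (limma adjusted p = 0.94) for LN229 minus U87 MG. It was the single reversal among 56 called member results, and for each of these results whose call was lost the cause was not tested. In LN229, FANCE and FAAP24 lost their call with equal totals, with equal upper quartiles, without the filter and with the block, PALB2 with equal upper quartiles and NBN with the block (adjusted p = 0.054). MUS81 in U87 MG and FANCL in U87-R lost theirs with equal totals, BRCA2 in U87 MG with equal upper quartiles, RBBP8 for LN229 minus U87 MG without the filter, and EME1 in LN229-R with a pseudocount of 0.5. Without the variance trend, 18 of the 56 calls were lost. They were BRCA1, PALB2, BARD1, XRCC2, NBN and FANCE in LN229, and RAD51AP1, RAD54L, FAN1 and EME1 in LN229-R. In the U87 family they were BRCA2 and MUS81 in U87 MG, and PALB2, FANCL and UBE2T in U87-R. The others were XRCC3 for LN229-R against LN229, and RBBP8 and FANCD2 for LN229 minus U87 MG. The number of libraries, 3 a group, limits what could be detected, and the read depth behind each value is unknown.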

Other observations

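Genes of end joining, the other route for broken ends, moved in both directions with STM2457 in both LN229 lines, and their summed level was lower in all 4 lines. Of the 17 listed, 1 rose and none fell in U87 MG and in U87-R, where 17 were tested. Of the 16 tested in the LN229 family, 4 rose and 4 fell in LN229, and 2 rose and 4 fell in LN229-R. These were 25.0% higher and 25.0% lower in LN229, against 26.2% and 23.6% of all genes, and 12.5% higher and 25.0% lower in LN229-R, against 21.5% and 17.1%. Their summed level was 34447 to 37943 normalized counts with STM2457 against 40170 to 43088 with DMSO in U87 MG, and 31698 to 32776 with STM2457 against 35394 to 36839 with DMSO in U87-R. It was 25983 to 29495 with STM2457 against 36350 to 39187 with DMSO in LN229, and 24679 to 34635 with STM2457 against 36676 to 44094 with DMSO in LN229-R. The sums did not overlap in any line. The median log2 change of the tested genes was -0.02 in U87 MG, -0.05 in U87-R, -0.04 in LN229 and -0.12 in LN229-R. In U87 MG 8 changes were positive and 9 negative. A sum is weighted towards the most abundant genes, so the lower sums do not show a fall across the list. Between resistant and parental cells 0 passed limma's test in both families, with 1 at an unadjusted p under 0.05 in U87-R against U87 MG and 3 in LN229-R against LN229.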
